A study of Mus musculus with 31 samples.

Results

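Ccl2 and Ccl7 encode secreted CC chemokines that draw monocytes out of the blood and into tissue. Their transcripts were followed in D10.G4.1 cells, a single clone of mouse T helper cells of the Th2 type, exposed to neuromedin U (NmU), a neuropeptide. All probe sets paired with the single symbol Ccl2 or Ccl7 in the array's probe annotation were taken. There were 2, one for each gene, among the 12422 probe sets that were not array controls, which covered 8251 named genes. Both passed the filter on low values described below, Ccl2 only through its NmU groups at 0.8 and 3 h.

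The groups were cells given phosphate-buffered saline (PBS) and cells given NmU, each sampled at 0.8, 3, 6 and 12 h. There were 31 samples, each on 1 array: 3 for NmU at 3 h and 4 for each other group. All came from the same clone, and the labels give neither the dose of NmU, the culture medium nor whether replicates were separate cultures. The spread behind the p-values is thus that of these samples, and it may be technical.

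Chemokines of this family act through G protein-coupled receptors on the target cell. Ccl2, also called MCP-1 or JE, signals mainly through Ccr2, the receptor that marks inflammatory monocytes. Ccl7, also called MCP-3, is a ligand of Ccr1, Ccr2 and Ccr3 and so can also reach eosinophils, which carry Ccr3. Macrophages, fibroblasts and endothelial cells are well-known sources of both chemokines, and mast cells and T cells can make them too. In the gene table used here (RefSeq, assembly GRCm38.p6) the 2 genes stand next to each other on chromosome 11, followed by Ccl11, Ccl12, Ccl8 and Ccl1.

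Values are the deposited probe set signals on a linear scale. For tests, log2 was taken after a floor of 5.8 (the 20th percentile of the table) had been applied. A value at or below the floor has no order among other such values. Levels of the 2 genes are not compared with each other, because probes differ in brightness. In these bulk samples fewer cells making a transcript and less transcript per cell cannot be told apart.

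At 0.8 h, the earliest time, both transcripts were already far higher with NmU. The Ccl2 signal was 1.7, 4.4, 3.6 and 2.6 on the PBS arrays, all at the floor, and 36.9, 37.6, 51.5 and 46.0 on the NmU arrays. Every NmU array lay above every PBS array. Against the floor, Ccl2 was at least 7.34-fold higher with NmU, and the change on the floored log2 scale was 2.88 ± 0.28 (SE, limma adjusted p = 1.25e-07). The Ccl7 signal was 37.4, 82.1, 76.3 and 85.3 with PBS and 663.1, 679.9, 523.9 and 580.8 with NmU. The NmU group mean was 612 ± 72.9 (SD, n = 4) against 70.3 ± 22.2 (SD, n = 4), a 9.10-fold difference of geometric means (log2 3.19 ± 0.35 SE, limma adjusted p = 7.82e-07). Replicate 1 of the PBS group was the low array, and the lowest NmU array was still 6.14-fold above the highest PBS array. At this time 0.782% of the 7930 probe sets tested were called higher, at an adjusted p under 0.05. Arrays of the 2 treatments did not overlap, with NmU higher, for 2.56% of them. Ccl7 ranked 4 and Ccl2 ranked 5 from the top of all probe sets by log2 change.

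**Figure D1:**
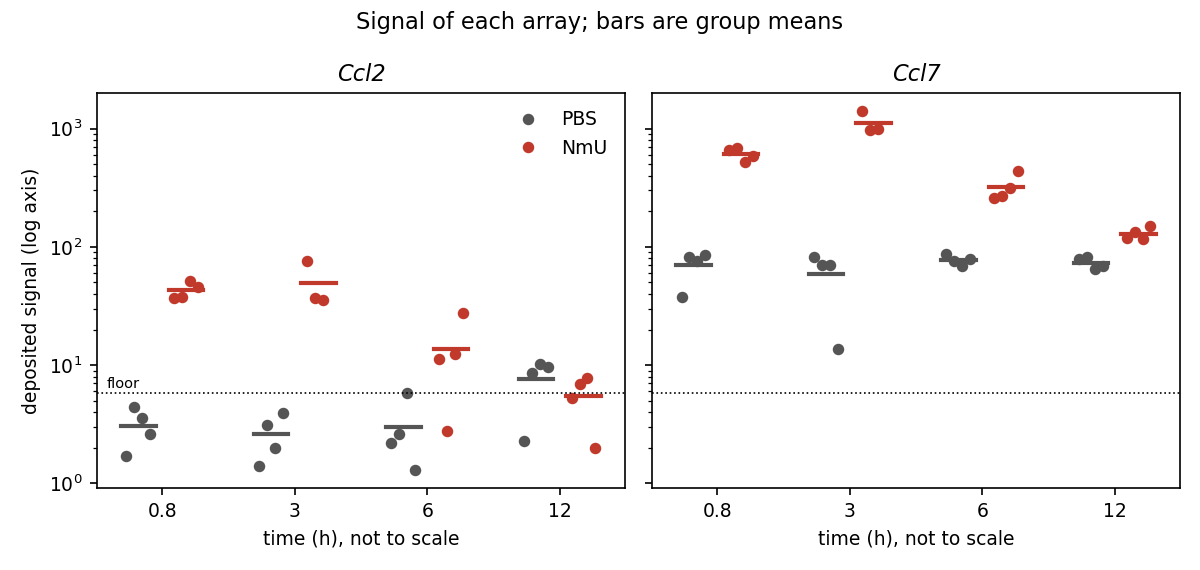
Deposited signal of Ccl2 (left) and Ccl7 (right) on a log axis for each of the 31 arrays, at 0.8, 3, 6 and 12 h of PBS (grey) or NmU (red). Bars are group means and the dotted line is the floor of 5.8. Ccl2 lies at or under the floor on all PBS arrays up to 6 h, while Ccl7 lies between 64.6 and 87.4 on all PBS arrays but 2, and both are highest with NmU at 0.8 and 3 h.

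Both were also called at 3 h, where Ccl7 had the highest log2 change of the probe sets tested. The Ccl7 signal was 1396.5, 978.9 and 985.2 on the 3 NmU arrays and 81.3, 69.7, 70.4 and 13.8 on the 4 PBS arrays. Its log2 change of 4.51 ± 0.38 (SE, limma adjusted p = 5.78e-09) ranked 1 from the top among the 7930 probe sets and corresponds to 22.8-fold. The PBS group held 1 array, replicate 4, far below the others, and the log2 change without that array was 3.91. A probe set of Il4 had a log2 change of 4.11 with all arrays in the fit. The rank of Ccl7 without PBS 3 h replicate 4 was not taken. The lowest NmU array was 12.0-fold above the highest PBS array. The Ccl2 signal was 76.5, 36.9 and 35.5 with NmU and 1.4, 3.1, 2.0 and 3.9 with PBS, again with every PBS array at the floor. Ccl2 was at least 8.01-fold higher (log2 3.00 ± 0.31 SE, limma adjusted p = 1.22e-07). One NmU array, replicate 1, stood high among the 3, and it also held the highest Ccl7 signal. At 3 h 4.44% of probe sets were called higher and 8.12% did not overlap in that direction.

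At 6 h both transcripts were lower than at 3 h in NmU-treated cells, and Ccl7 remained clear of its PBS level. The Ccl7 signal was 257.2, 270.6, 316.1 and 440.0 with NmU against 87.4, 75.6, 68.7 and 78.3 with PBS (log2 2.02 ± 0.35 SE, limma adjusted p = 6.25e-04), a 4.06-fold difference without overlap. The Ccl2 signal was 11.3, 2.8, 12.5 and 27.7 with NmU and 2.2, 2.6, 5.8 and 1.3 with PBS. One NmU array, replicate 2, was at the floor with all 4 PBS arrays, so the groups overlapped. As that NmU array was itself raised to the floor, the fold at this time is no lower bound. On the floored scale Ccl2 was 2.12-fold higher (log2 1.08 ± 0.28 SE, limma adjusted p = 0.0233). This call was lost without NmU 6 h replicate 4, the highest array of its group for both genes (log2 0.69, adjusted p = 0.0918). That array stood apart in the early response genes Egr1 and Fos, with signals of 1586.7 and 336.7. The other NmU arrays at 6 h had 147.6 to 170.2 and 28.5 to 33.6. The part of these genes in the Ccl2 and Ccl7 values of replicate 4 was not tested. The median correlation of replicate 4 was 0.9702 with its own group and 0.9716 with the NmU arrays at 0.8 h. The other arrays of its group had close values of 0.9703 to 0.9723 with their own group, each above their value with any other. Replicate 4 was the only NmU array with a higher median correlation with another group than with its own. Several PBS arrays also correlated better with another group, among them PBS 3 h replicate 2 (0.9733, against 0.9633 with its own). The Ccl2 call at 6 h was also lost without PBS 6 h replicate 1, 2 or 4 or NmU 6 h replicate 3, with limma adjusted p between 0.0513 and 0.0643. At 6 h 2.85% of probe sets were called higher and 6.54% did not overlap in that direction.

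By 12 h Ccl2 was no longer called, and Ccl7 was still higher on every NmU array without passing the test. The Ccl7 signal was 118.3, 133.8, 115.7 and 149.5 with NmU and 78.2, 82.2, 64.6 and 68.6 with PBS. The groups did not overlap, as was the case with NmU higher for 3.67% of probe sets, and the geometric means differed 1.76-fold (log2 0.82 ± 0.35 SE, limma adjusted p = 0.363). The call rests on the spread shared by all groups, which for Ccl7 is raised by the low PBS arrays at earlier times. Its SD on the log2 scale was 1.21 in PBS at 3 h and 0.56 in PBS at 0.8 h, but 0.16 in PBS and 0.17 in NmU at 12 h. Without PBS 3 h replicate 4 the difference at 12 h was called with the same fold (adjusted p = 0.0295), as it was with only the 2 groups at 12 h in the fit (adjusted p = 0.0337). Of all probe sets, 0.858% were called higher at 12 h.

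The Ccl2 signal at 12 h was 5.3, 6.9, 7.8 and 2.0 with NmU and 2.3, 8.6, 10.2 and 9.7 with PBS. Of these 8 arrays 3 were at the floor, the groups overlapped, and the log2 change was -0.36 ± 0.28 (SE, limma adjusted p = 0.688), with a 95% interval from -0.95 to 0.22. PBS at 12 h was the only PBS group in which Ccl2 left the floor, on 3 of 4 arrays. A change of either gene with time in PBS was not called (F test, limma adjusted p = 0.692 for Ccl2 and 0.734 for Ccl7), as was the case for all but 0.0126% of probe sets.

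An exact two-sided permutation test of each gene at each time, which borrows no spread from other groups or genes, gave p = 0.0286 for Ccl7 at 0.8, 6 and 12 h and for Ccl2 at 0.8 h. This is the smallest p that 4 arrays against 4 can give. At 3 h both genes gave p = 0.0571, the smallest possible with 3 against 4, and Ccl2 gave exact p = 0.143 at 6 h and 0.171 at 12 h. Adjusted over the 8 tests the lowest exact permutation p was 0.0571, so that no gene and time passed at 0.05 in this test.

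**Figure D2:**
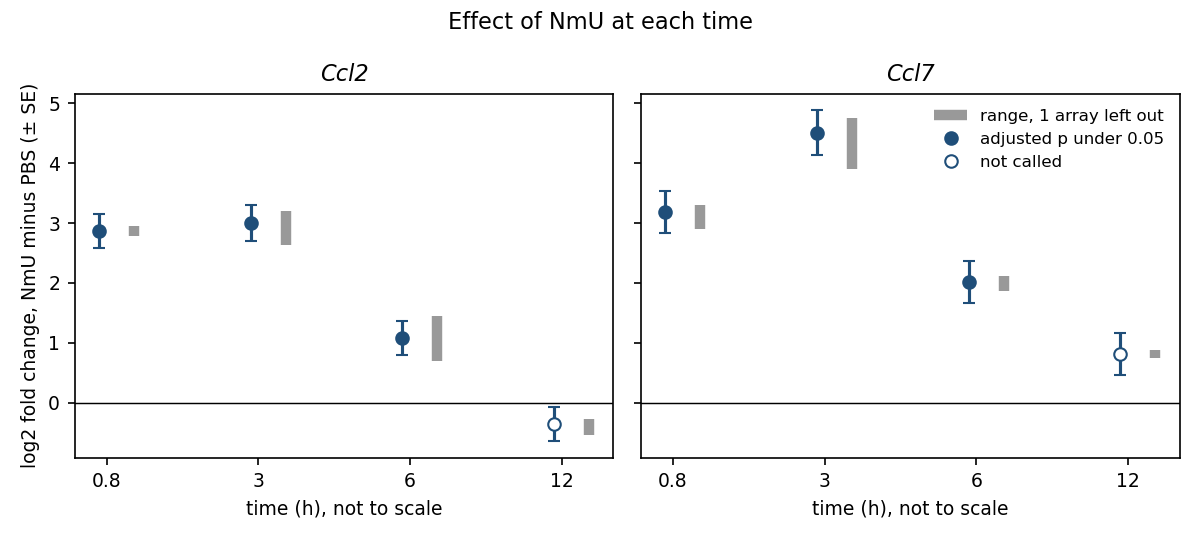
Log2 fold change of NmU against PBS for Ccl2 (left) and Ccl7 (right) at each time, with limma standard errors. Filled points passed an adjusted p of 0.05, open points did not, and grey bars span the values with each of the 31 arrays left out in turn. The Ccl7 change peaks at 4.51 at 3 h and Ccl2 has like values of 2.88 and 3.00 at 0.8 and 3 h, while both are lower at 6 and 12 h.

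The time courses of the 2 effects were tested directly. The NmU effect differed between times for both genes (F test, limma adjusted p = 2.91e-05 for Ccl2 and 2.80e-04 for Ccl7), as it did for 4.04% of probe sets. By p, Ccl2 ranked 2 of 7930 in this test and Ccl7 ranked 31. The fall between 3 and 6 h was called for both, at -1.92 ± 0.42 for Ccl2 and -2.49 ± 0.52 for Ccl7 (SE, limma adjusted p = 0.0226 and 0.0147). Only 0.315% of probe sets fell in that step. Without NmU 3 h replicate 1 neither fall was called (-1.56, adjusted p = 0.110, and -2.32, adjusted p = 0.0544), and the Ccl2 fall was also lost without NmU 6 h replicate 1 (adjusted p = 0.0511).

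Between 0.8 and 3 h the effect on Ccl2 differed by 0.13 ± 0.42 (SE, limma adjusted p = 0.921), with a 95% interval from -0.74 to 0.99. Its sign turned without NmU 3 h replicate 1 (-0.23). For Ccl7 the effect was larger at 3 h by 1.32 ± 0.52, which did not pass the test (limma adjusted p = 0.185), while 1.5% of probe sets were called higher. It was 0.72 without PBS 3 h replicate 4. From 6 to 12 h the effect changed by -1.44 ± 0.40 for Ccl2 and -1.21 ± 0.50 for Ccl7, and neither was called (limma adjusted p = 0.232 and 0.535, with 0.0504% of probe sets called lower). The Ccl2 step was called without NmU 6 h replicate 2 (-1.80, adjusted p = 0.0205).

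In NmU-treated cells the order of Ccl7 levels was 3 h, 0.8 h, 6 h and 12 h, and no 2 neighbours in that order overlapped. This order was read from the same values. The share of all probe sets whose NmU times separate in this way was not taken, here or for Ccl2 below. The Ccl7 group means were 1120 ± 239 (SD, n = 3), 612 ± 72.9, 321 ± 83.3 and 129 ± 15.6 (SD, n = 4 each). For Ccl2 the means were 49.6 ± 23.3 (SD, n = 3) at 3 h, 43.0 ± 7.01 at 0.8 h, 13.6 ± 10.4 at 6 h and 5.50 ± 2.55 at 12 h (SD, n = 4 each). The arrays at 3 and 0.8 h overlapped, those at 6 h lay below both, and those at 12 h overlapped with 6 h. As a share of its own mean at 3 h, the signal at 0.8 h was 86.6% for Ccl2 and 54.6% for Ccl7. At 6 h it was 27.4% and 28.7%, or 17.9% and 25.1% without NmU 6 h replicate 4. At 12 h it was 11.5% for Ccl7, and the Ccl2 mean lay under the floor. Ccl2 values under the floor enter these shares as deposited.

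Set among all probe sets of its array, Ccl7 lay between percentiles 50.1 and 63.4 with PBS and between 90.7 and 93.0 with NmU at 0.8 h. At 3 h it lay at 62.7 or lower with PBS, lowest on replicate 4, and between 95.3 and 97.0 with NmU. The Ccl2 probe set lay between percentiles 3.53 and 30.2 with PBS and between 49.1 and 62.6 with NmU at 0.8 and 3 h. These ranks describe signal and not transcript number.

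Both genes belonged to a small set that was called higher at 0.8, 3 and 6 h alike. It held 22 probe sets (0.277% of those tested) for 20 named genes, and 9 of the probe sets were called higher at 12 h as well. Ccl2 and Ccl7 were among the 13 that were not. In this group of 13 stood also Csf1, the growth factor of macrophages, and Tnf. At 12 h the log2 changes were -0.36 for Ccl2, 0.82 for Ccl7, 0.05 for Csf1 and 0.55 for Tnf.

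Of the genes that lie beside Ccl2 and Ccl7 in the gene table, Ccl1 rose and 3 others were dim on all arrays. Ccl1, a ligand of the receptor Ccr8, was the only further tested gene within 500 kb of Ccl2. Its signal on the NmU arrays at 0.8 h was 90.5, 92.3, 165.8 and 122.7, against 73.2, 88.6, 44.1 and 76.2 with PBS, and the change was not called (log2 0.74 ± 0.27 SE, limma adjusted p = 0.404). At 3 h it reached 1569.4, 1032.5 and 1038.9 against 141.3, 91.3, 88.7 and 57.6 (log2 3.72 ± 0.30 SE, limma adjusted p = 2.03e-09). It was called at 6 h (2.10 ± 0.27) and at 12 h (1.23 ± 0.27, limma adjusted p = 0.0172). The call at 12 h was lost without PBS 12 h replicate 1 or 4 or NmU 12 h replicate 2 or 4 (adjusted p = 0.0624, 0.0748, 0.0603 and 0.0687). Ccl1 was therefore not called at 0.8 h, when both members were, and called at 12 h, when neither was, but the difference between genes was not tested.

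The other 3 genes of the row encode close relatives. The eotaxin gene Ccl11 had signals between 1.5 and 13.8 over the 31 arrays, with 20 arrays at the floor. Ccl12, which like Ccl2 is a ligand of Ccr2, had signals between 3.1 and 18.1 with 13 arrays at the floor. Ccl8, encoding a further monocyte chemoattractant, lay between 3.7 and 11.7 with 11 arrays at the floor. None of these 3 passed the filter on low values, so that their response was not tested.

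**Figure D3:**
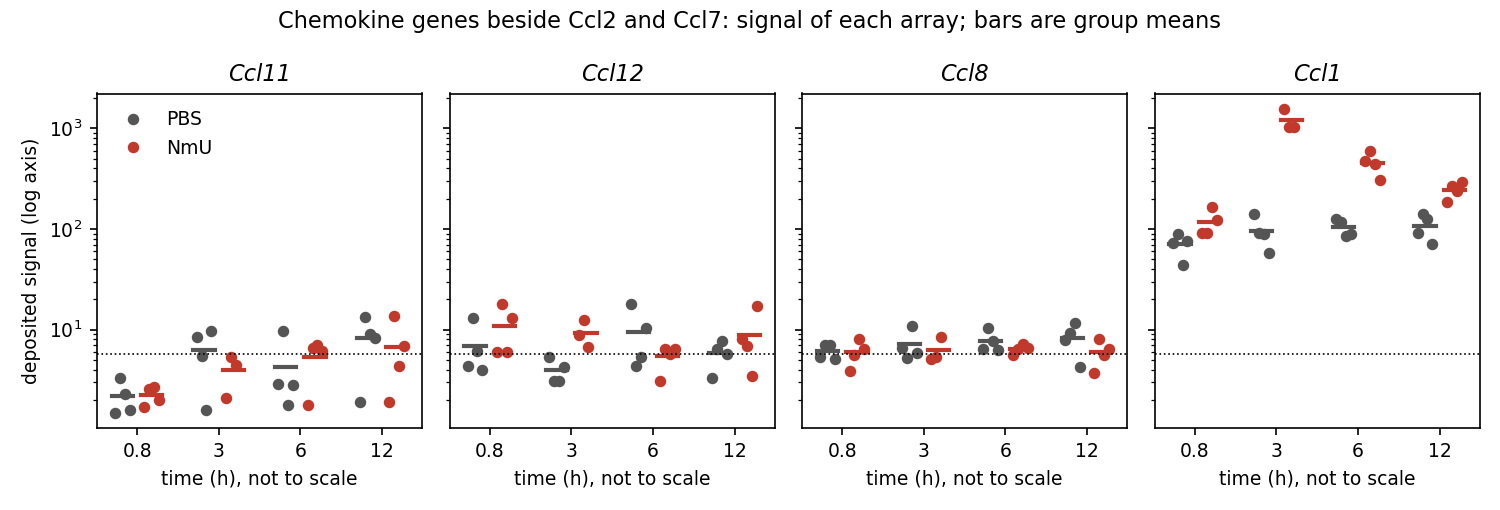
Deposited signal on a log axis of Ccl11, Ccl12, Ccl8 and Ccl1, the chemokine genes that follow Ccl2 and Ccl7 in the gene table, for each of the 31 arrays by time and treatment. Bars are group means and the dotted line is the floor of 5.8. Ccl11, Ccl12 and Ccl8 stay under 20 on all arrays with both treatments, while Ccl1 reaches 1569.4 with NmU at 3 h.

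Over the whole family, 24 chemokine ligand genes had a probe set with 1 symbol and 10 passed the filter, the members included. Of these 10, 3 rose at 0.8 h (Ccl7, Ccl2 and Ccl4), 6 rose at 3 h and at 6 h, 3 rose at 12 h, and 0 fell at any time (limma), also at an unadjusted p under 0.05. Of all probe sets, 0.0631%, 5.73%, 2.03% and 0.404% fell at 0.8, 3, 6 and 12 h. The median log2 change of the 10 was 0.70 at 0.8 h, 1.50 at 3 h, 1.37 at 6 h and 0.84 at 12 h, against -0.04, -0.03, 0.02 and -0.02 over all probe sets. Ccl2, Ccl4 and Cxcl2 had PBS group means of at most 7.7, 17.9 and 13.1, under the filter signal of 20.2. The PBS means of Xcl1 were 15.3 to 21.7, and on the log2 scale of the filter it passed only with NmU at 6 and 12 h (29.6 and 45.2). Ccl2, Ccl4, Cxcl2 and Xcl1 were thus tested only because NmU groups were high. This favours a rise and leaves little room for a fall. This selection bears on the counts and medians of the list. Scaling to a common median and quantile normalisation left these counts as they were. With only the groups compared 5, 4 and 2 rose at 3, 6 and 12 h. In that fit Cxcl2 was lost at 3 h (limma adjusted p = 0.0686) and Ccl2 and Ccl4 at 6 h (limma adjusted p = 0.202 and 0.0601). At 12 h Ccl1 and Ccl4 were lost (limma adjusted p = 0.0821 and 0.11) and Ccl7 was gained (limma adjusted p = 0.0337). Leaving out PBS replicate 1 or NmU replicate 2 at 12 h brought the count at that time to 1. Ccl3, which attracts monocytes and T cells through Ccr1, had log2 changes of 0.78 ± 0.30, 2.12 ± 0.32, 2.16 ± 0.30 and 2.44 ± 0.30 (SE) from 0.8 to 12 h. Ccl4, a related inflammatory chemokine, had 2.01 ± 0.38, 3.30 ± 0.41, 1.67 ± 0.38 and 1.67 ± 0.38. Its call at 12 h (limma adjusted p = 0.0209) was lost without any of 5 single arrays of that time, and with only the groups compared. The neutrophil attractant Cxcl2 was highest at 6 h (1.81 ± 0.25), and lymphotactin Xcl1 was not called at any time.

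Of the receptors that bind Ccl2 or Ccl7, only Ccr1 was measured well above the floor. It was 198 ± 25.3 with PBS and 284 ± 32.2 with NmU at 0.8 h (SD, n = 4 each), a log2 difference of 0.52 ± 0.16 (SE) that was not called (limma adjusted p = 0.217). At 6 h the mean was 338 ± 46.4 with NmU and 174 ± 24.2 with PBS (SD, n = 4 each), without overlap. That rise of 0.95 ± 0.16 (log2, SE) was called by limma (adjusted p = 4.19e-04). At 3 h its call (0.58 ± 0.17, limma adjusted p = 0.0294) was lost when PBS replicate 4 or NmU replicate 2 of that time was left out (adjusted p = 0.0722 and 0.181), and with a common median for all arrays (0.0584). At 12 h it was not called (0.52 ± 0.16, limma adjusted p = 0.131), but it was without NmU 12 h replicate 4 (0.67, adjusted p = 0.0311). Ccr2, the receptor of both members, had signals between 1.4 and 15.2 with 16 of 31 arrays at the floor, and Ccr3 between 2.4 and 15.5. The decoy receptors Ackr1 and Ackr2, which take up chemokines without signalling, lay between 2.5 and 11.7 and between 3.0 and 16.8. These 4 did not pass the filter. Of 7 chemokine receptors tested in all, 1 rose and 0 fell at 0.8 h, 2 rose and 1 fell at 3 h, 1 rose and 2 fell at 6 h, and 0 rose and 1 fell at 12 h. Over all probe sets 0.782% rose and 0.0631% fell at 0.8 h, 4.44% and 5.73% at 3 h, 2.85% and 2.03% at 6 h, and 0.858% and 0.404% at 12 h. Leaving out PBS replicate 4 or NmU replicate 2 at 3 h, giving arrays a common median or using the replicate block left 1 that rose at that time, and a fit of only the groups compared left 0 (Ccr1 adjusted p = 0.112). At 6 h 1 fell without PBS replicate 1 or 4 or without NmU replicate 1, 2 or 3. The fall at 12 h was lost with a common median, without any 1 of the 8 arrays of that time and without 5 single arrays of earlier times.

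Among other signals that act on monocytes, Csf1 was the 1 gene called of 3 tested. Its signal was 307.5, 313.6, 326.9 and 301.6 with NmU at 0.8 h against 167.1, 187.8, 196.0 and 157.4 with PBS (log2 0.82 ± 0.11 SE, limma adjusted p = 1.22e-05). It was higher by 0.99 ± 0.12 at 3 h and 0.56 ± 0.11 at 6 h, a call that was lost with only the groups compared (adjusted p = 0.0557), and by 0.05 ± 0.11 at 12 h (adjusted p = 0.909). Ccl5 and Csf3, the other 2 tested, were not called at any time.

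A list of 36 factors known to act on Ccl2 or Ccl7 transcription, on the stability of such transcripts or as cytokines that induce them held 28 tested genes. Their median log2 change was 0.37, 0.46, 0.20 and -0.00095 from 0.8 to 12 h, against -0.04, -0.03, 0.02 and -0.02 over all probe sets, of which 0.782%, 4.44%, 2.85% and 0.858% rose. Of the 28, 13 rose at 0.8 h, 12 at 3 h, 5 at 6 h and 4 at 12 h, and 0 fell (limma; at an unadjusted p under 0.05, 1 fell at 0.8 h and 1 at 6 h). The list was chosen with earlier results of these data known, so these counts and medians are no test of whether such factors rose more than other genes. After quantile normalisation, with array weights or without NmU 6 h replicate 4, 1 fell at 6 h. With both arrays that stood apart left out (PBS 3 h replicate 4 and NmU 6 h replicate 4) 1 fell at 3 h and 1 at 6 h. The 6 with the lowest p over all times were Il4, Il6, Il13, Tnf, Fosl1 and Zfp36. Tnf, a strong inducer of both chemokines in many cells, rose by 2.29 ± 0.22 on the log2 scale at 0.8 h (limma adjusted p = 8.17e-08) and by 1.27 ± 0.22 at 6 h, and was not called at 12 h (0.55 ± 0.22). The AP-1 subunit Fosl1 rose by 1.56 ± 0.21, 1.58 ± 0.22 and 1.41 ± 0.21 at 0.8, 3 and 6 h. Zfp36, which binds AU-rich elements and speeds the decay of cytokine transcripts, was called at 0.8 h (1.75 ± 0.16, limma adjusted p = 2.70e-08) and not later, with 0.49 ± 0.17 at 3 h (adjusted p = 0.0648) and 0.18 ± 0.16 at 6 h. Il4, Il6 and Il13 were called at all 4 times, with 1.21, 0.66 and 0.85 at 12 h. The inflammatory cytokines Il1b and Ifng did not pass the filter, with 27 and 29 of 31 arrays at the floor.

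Over the 31 arrays on the floored log2 scale, the 8 genes whose values correlated most closely with Ccl2 were Ier3 (Pearson r 0.905), Ctla4 (0.893), Ccl7 (0.876), Csf1 (0.874), Egr2 (0.870), Fosl1 (0.867), Crem (0.861) and Nr4a1 (0.857). For Ccl7 they were Il4 by a further probe set (0.932), Ctla4 (0.929), Il10 (0.926), Phlda1 (0.908), Csf1 (0.902), Il13 (0.893), Gch1 (0.891) and Ccl4 (0.888). Ctla4, an inhibitory receptor of T cells, and Csf1 stood on both lists. Ccl7 ranked 3 among the genes most like Ccl2, while Ccl2 ranked 11 for Ccl7. The arrays share treatment and time, which sets most of these values. Between Ccl2 and Ccl7 the correlation was 0.946 over the 8 group means and 0.183 over the 31 deviations from group means. On all PBS arrays at 0.8, 3 and 6 h Ccl2 was at the floor and so had no deviation. These include PBS 0.8 h replicate 1 and PBS 3 h replicate 4, where Ccl7 was low. The correlation of deviations is limited by this.

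**Figure D4:**
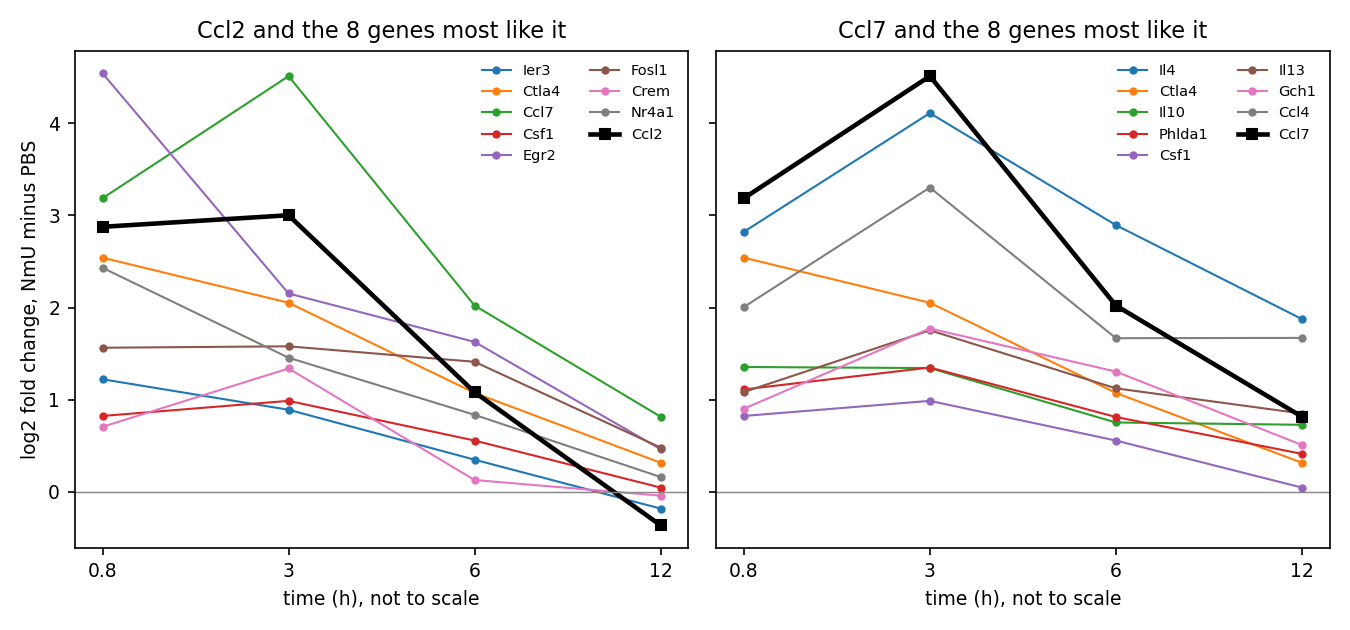
Log2 fold change of NmU against PBS at each time for Ccl2 (left, black) and Ccl7 (right, black) with the 8 genes whose signal correlated most closely with each over the 31 arrays (coloured lines). Of the genes on the left Ccl7 is highest at 12 h, at 0.82, while on the right Il4, Il10, Il13 and Ccl4 are at 0.73 or more at that time.

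The list of markers of macrophages and monocytes, cells known to make both chemokines, was examined beside these results. All 12 markers had a probe set, and 4 of them (Lyz2, Adgre1, Itgam and Marco) had a median at or below the floor. Itgam was at the floor on all 31 arrays. No marker was at 0 on any array. Their summed signal lay between 314 and 559 in the PBS groups at 0.8 and 3 h and between 407 and 564 in the NmU groups at these times, where Ccl2 and Ccl7 were highest. At 6 h it lay between 420 and 527 with PBS and between 446 and 592 with NmU, and at 12 h between 400 and 640 and between 477 and 542. Of 6 tested members 0 were called by limma at 0.8 and 3 h, also at an unadjusted p under 0.05. Over all probe sets 0.782%, 4.44%, 2.85% and 0.858% were called higher from 0.8 to 12 h. The shares called lower were 0.0631%, 5.73%, 2.03% and 0.404%. At such shares few calls would be met in lists of 6 tested genes or fewer. The counts here and for the cell types below thus say little about which cells were present. Cd68, a lysosomal protein, was called higher at 6 h (0.54 ± 0.15, limma adjusted p = 0.0370) and 12 h (0.61 ± 0.15, limma adjusted p = 0.0457), and these calls were lost without 6 and 22 single arrays, respectively. At 6 h the call was also lost with a common median and after quantile normalisation (adjusted p = 0.109 and 0.105) and under 3 more alternatives, and at 12 h under 4 (adjusted p up to 0.331). Of 5 fibroblast, 4 endothelial and 5 mast cell markers, the 2, 1 and 2 tested were not called at any time, also at an unadjusted p under 0.05. The fibroblast sum lay between 298 and 619 over the 31 arrays, with Col1a2 at 251.5 to 508.7, near the range of the macrophage and monocyte sum. Endothelial and mast cell sums lay between 44.4 and 144.8 and between 43.7 and 131.4. Dendritic cell and B cell markers gave 0 calls of 3 and of 5 tested, with 1 gene each at an unadjusted p under 0.05 at 1 time. Of 3 neutrophil markers tested 1 was called higher at 6 h, and none of 4 cytotoxic cell markers passed the filter. None of 6 T cell markers tested was called, and Cd3d, Cd3e, Cd3g, Cd4 and Cd28 had signals between 230.4 and 1763. Cd2, also tested, was dim, between 7.4 and 31.9, as were Cd5 and Thy1, which did not pass the filter, at 22.1 or less.

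The 2 PBS arrays with the lowest Ccl7 signals, 13.8 on PBS 3 h replicate 4 and 37.4 on PBS 0.8 h replicate 1, also had the lowest signals of 1 marker, Mpeg1, the gene of a pore-forming protein of macrophages. The Mpeg1 signal was 133 on the array of 0.8 h and lower still on that of 3 h, against 219 to 279 and 255 to 337 on the other arrays of these groups. Their sums over all 12 markers, 359 at 0.8 h and 314 at 3 h, were the lowest of the 31 arrays. So were their sums of dendritic cell markers (167.5 and 159.2) and of Th2 markers (3990.9 and 3919.1). The mast cell sum was the lowest on PBS 3 h replicate 4 (43.7) but not on PBS 0.8 h replicate 1 (85.1). Neither array had the lowest sum of T cell, B cell, neutrophil, fibroblast, endothelial or cytotoxic cell markers. The 11 macrophage and monocyte markers other than Mpeg1 summed to 244 on PBS 3 h replicate 4, the highest of its group, where the other arrays had 207 to 219. On PBS 0.8 h replicate 1 they summed to 226, the lowest of its group, but 10 of the 31 arrays had lower sums. Cd14 was 71.6 and 88.5 on the 2 arrays, within the range of their groups. The array with the highest Ccl7, NmU 3 h replicate 1, had an Mpeg1 signal of 180 and a sum of 227 over the other 11 markers. PBS 3 h replicate 4 also had 44 probe sets at least 4-fold below the mean of its group's other arrays, the most of all 31, where the others had 2 to 32. The part of array quality in the Ccl7 values was not tested.

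**Figure D5:**
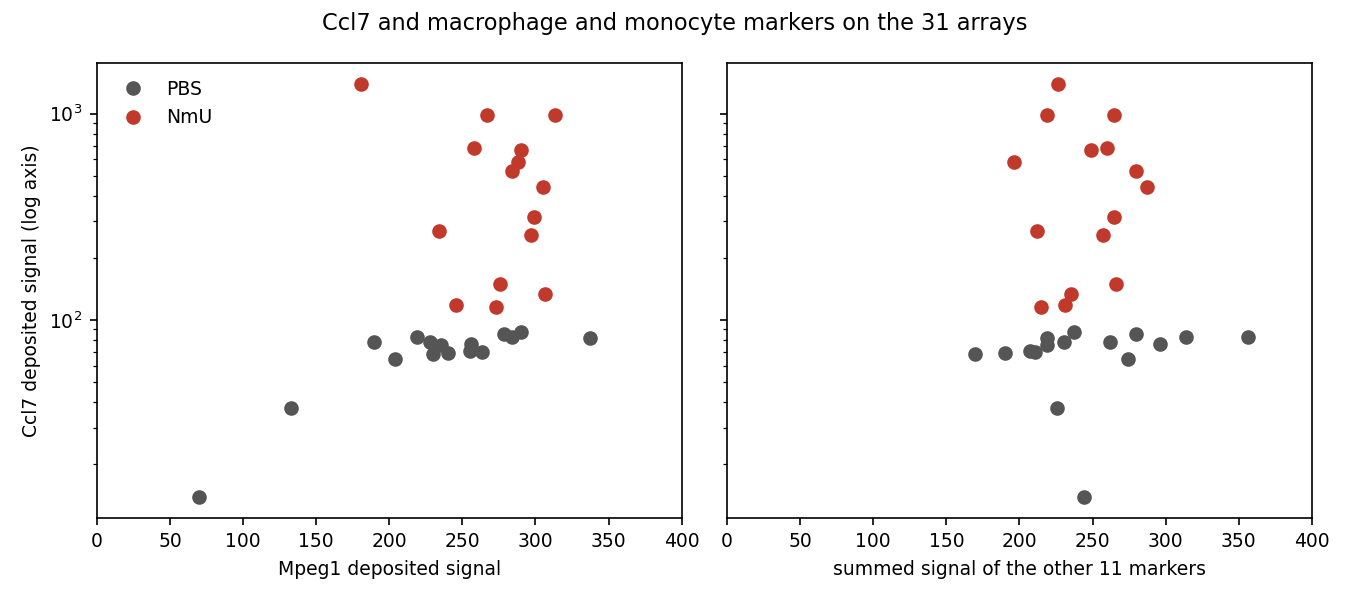
Ccl7 signal (log axis) on each of the 31 arrays against the Mpeg1 signal (left) and against the summed signal of the other 11 macrophage and monocyte markers (right), with PBS in grey and NmU in red. The 2 PBS arrays with the lowest Ccl7, 37.4 and 13.8, have the lowest Mpeg1 signals, while their sums over the other 11 markers, 226 and 244, lie inside the range of the other arrays.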

How the data were processed

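The authors deposited a table of intensities, linear and 1 per probe set, for 31 single-colour arrays. How the authors summarised and scaled them is not given in the sources used here. Array means trimmed by 2% at each end ran from 150.09 to 150.11 and medians from 34.4 to 43.3, so no further normalisation was applied. The number of arrays limits the precision. No 2 arrays were identical. Of 12488 probe sets 66 controls were left out, and symbols came from the platform's probe table.

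Signals were floored at 5.8 (20th percentile) and log2 was taken. Probe sets were kept if the mean in at least 1 group exceeded the 40th percentile, a signal of 20.2, which left 7930. All 31 arrays entered 1 linear model of 8 group means in limma 3.58.1 (R 4.3.3), with 23 residual and 2.72 prior degrees of freedom. P-values were two-sided and Benjamini-Hochberg adjusted over the 7930 probe sets of each contrast, with a call at 0.05. Exact permutation tests used scipy 1.17.1. The fit was checked on simulated data. Named genes were all chemokine ligands near Ccl2, its receptors, up to 4 further ligands and 6 regulators with the lowest F p, monocyte signals that were called, and the 8 genes best correlated with each member. For a gene with several probe sets the brightest stood for it. Genes and lists were chosen with earlier results of these data known, and Mpeg1, Cd14, Cd68, Egr1, Fos at 6 h and single arrays were singled out after their values were seen. Alternatives covered the floor, scaling, filter, prior, weights, samples in the fit, the replicate block and each array left out. Same-numbered arrays of the 2 treatments were not treated as pairs.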

Additional observations from a re-analysis of the deposited data

Results flagged for a closer look

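In the PBS group at 0.8 h the Ccl7 signal of replicate 1 was 37.4, far below the other 3 arrays on the log2 scale. In the PBS group at 3 h replicate 4 stood apart in the same way, at 13.8. Such a gap is met by chance in about 1 group in 20, and 11 groups of 4 arrays whose values were not all at the floor were examined for the 2 genes.

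The effect of NmU differed between 6 and 3 h for both genes, by -1.92 for Ccl2 and by -2.49 for Ccl7 on the log2 scale, as the test of the difference in limma showed (adjusted p = 0.0226 and 0.0147).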

How the results depend on the processing

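For Ccl2 and Ccl7 the effects at 0.8 and 3 h kept their direction and their call under all 11 alternatives and with each of the 31 arrays left out, as did the Ccl7 effect at 6 h. With each array left out, log2 changes ranged from 2.78 to 2.94 and from 2.64 to 3.20 for Ccl2 at 0.8 and 3 h. For Ccl7 they ranged from 2.91 to 3.30, from 3.91 to 4.76 and from 1.86 to 2.12 at 0.8, 3 and 6 h. Under the 11 alternatives the Ccl2 change ranged more widely, from 1.08 to 3.67 at 0.8 h and from 1.20 to 3.90 at 3 h. All PBS arrays at these times were at the floor for Ccl2, so the size of its change depends on the floor chosen. The Ccl2 call at 6 h was lost with the floor at the 40th percentile (0.11), with log2(value + 16) (0.58), with a trend and robust prior (1.08, adjusted p = 0.0771) and with only the groups compared (1.08, adjusted p = 0.202). It was also lost with the 2 arrays that stood apart left out together, an alternative chosen after seeing the data (0.69). Over single arrays left out it ranged from 0.69 to 1.44. The cause was not tested.

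The fall of the Ccl2 effect from 3 to 6 h lost its call under a floor at the 10th percentile (-2.29), a trend and robust prior (-1.92), only the groups compared (-1.92) or the replicate block (-1.92, adjusted p = 0.0517), and ranged from -2.31 to -1.56 with single arrays left out. That of Ccl7 was not called with only the groups compared (-2.49) and ranged from -2.74 to -1.88. The Ccl2 step from 0.8 to 3 h ranged from -0.23 to 0.32 and that from 6 to 12 h from -1.80 to -1.05. Ccl7 at 12 h, at 0.82 in both, was called with only the groups compared and with the 2 arrays left out (adjusted p = 0.0337 and 0.0170), and ranged from 0.74 to 0.87.

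Same-numbered arrays did not pair: the correlation of their deviations from group means lay between -0.22 and 0.20 over 15 pairs, and exceeded 0.1 for 5. The replicate block changed no other call of the 2 genes. Numbers of probe sets called over the array moved by more than 1.5 times in several fits. With only the groups compared 110 were higher and 61 lower at 3 h (352 and 454 as reported), 111 and 53 at 6 h (226 and 161), and 43 and 13 at 12 h (68 and 32), with 8 lower at 0.8 h (5). With a common median 266 were lower at 3 h, 115 higher at 6 h, 14 lower at 12 h and 3 lower at 0.8 h. With array weights 361 were higher and 316 lower at 6 h and 18 lower at 0.8 h, and 252 were lower at 6 h without the 2 arrays. Leaving out single arrays gave 144 to 286 higher and 92 to 215 lower at 6 h, and 15 to 40 lower at 12 h.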
